A study of Mus musculus with 21 samples.

Results

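The mouse mitochondrial genome carries 9 genes on its light strand: the tRNA genes mt-Tq, mt-Ta, mt-Tn, mt-Tc, mt-Ty, mt-Ts1, mt-Te and mt-Tp, and the protein gene mt-Nd6. They are 9 of the 37 mitochondrial genes in the RefSeq table for mouse, and were described here by the cDNAs that SRSF3 and SRSF7 left on them. Members were chosen by strand and coordinate alone: every listed mitochondrial position with a negative value was assigned to a gene by its place in build mm9. The 9 genes held 662 of the 1387615 positions in 6 lists. P19 cells, a mouse embryonal carcinoma line, expressed SRSF3-GFP or SRSF7-GFP, were exposed to ultraviolet light (254 nm, 100 mJ/cm2) and then separated into chromatin, nucleoplasm and cytoplasm before iCLIP. In this method ultraviolet light fixes a protein to the RNA it touches, and the end of each cDNA marks the contact to the nucleotide. The groups were SRSF3 in chromatin, nucleoplasm and cytoplasm with 4 replicates each, and SRSF7 in the same 3 fractions with 3 each. All 21 samples carried a GFP fusion, the labels do not say whether either line was 1 clone, and no sample without a tagged protein was analysed here. The expression of P19 marker genes was not checked, since the lists hold no gene names.

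Both strands of mitochondrial DNA are transcribed into long RNAs that span many genes. The tRNAs lie between the other genes, and their excision at both ends releases the RNAs in between. The heavy-strand transcript carries both rRNAs and nearly all mRNAs, whereas the light-strand transcript carries a few scattered tRNAs and mt-Nd6, a membrane subunit of respiratory complex I, with long stretches of antisense RNA that are normally degraded. Mitochondrial tRNAs read codons for the mitochondrial ribosome, and each is named after its amino acid: glutamine (mt-Tq), alanine (mt-Ta), asparagine (mt-Tn), cysteine (mt-Tc), tyrosine (mt-Ty), serine (mt-Ts1), glutamate (mt-Te) and proline (mt-Tp). SRSF3 and SRSF7 are serine/arginine-rich proteins known for their work on nuclear pre-mRNA and on mRNA export.

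Each group was deposited as 1 list that pools its replicates, so every value below is 1 number per group, with no spread between replicates and no test. Intervals are exact 95% intervals (Clopper-Pearson for shares, conditional binomial for ratios of shares) and cover counting error only. A list holds only positions that passed the authors' threshold, so a gene without a listed position is called not listed, which does not show that it was unbound. The smallest list, SRSF7 chromatin, held 248498 cDNAs and the largest, SRSF3 chromatin, 1768665. Fewer molecules of an RNA in a fraction and less binding to each cannot be told apart in these lists.

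Only 5 of the 9 genes were listed in any file: the tRNAs mt-Tq (3772 to 3842), mt-Ta (5018 to 5086), mt-Tc (5192 to 5257) and mt-Tp (15356 to 15422), and mt-Nd6 (13552 to 14070), all on the minus strand of the mitochondrial genome. The other 4, mt-Tn (5089 to 5159), mt-Ty (5260 to 5326), mt-Ts1 (6870 to 6938) and mt-Te (14071 to 14139), had 0 listed cDNAs in all 6 files. Of these 4, 3 adjoin a listed gene: mt-Tn lies next to mt-Ta, mt-Ty next to mt-Tc and mt-Te next to mt-Nd6. The fourth, mt-Ts1, lies between the cytochrome oxidase gene COX1 and the heavy-strand tRNA TrnD. Within the coordinates of all 9 genes every listed position carried a negative value, and 0 positions were listed on the opposite strand in any file. The start and end of all 9 genes also equal those in the RefSeq table, which is of another build. Light-strand listing was sparse: 15 of 232 windows of 70 nt held a listed position in at least 1 file on this strand, against 117 of 232 on the heavy strand.

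In both proteins the listed light-strand genes were carried mainly in cytoplasm. The proline tRNA mt-Tp was the only member with at least 50 cDNAs in all 6 files. Going from chromatin through nucleoplasm to cytoplasm, SRSF3 left 106, 97 and 1247 cDNAs on it, and SRSF7 left 53, 102 and 1028. As cDNAs per 1000000 listed cDNAs of the file (CPM), these are 59.9, 307 and 4850 for SRSF3, and 213, 371 and 2799 for SRSF7. Its level was thus lowest in chromatin and highest in cytoplasm for both proteins, with intervals that do not overlap between any pair of fractions within a protein.

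The cysteine tRNA mt-Tc had 80, 55 and 1226 cDNAs in SRSF3 chromatin, nucleoplasm and cytoplasm, or 45.2, 174 and 4769 CPM. In SRSF7 it had 20, 121 and 690 cDNAs, or 80.5, 440 and 1879 CPM. Chromatin was again lowest and cytoplasm highest for both proteins. For the alanine tRNA mt-Ta the counts were 109, 36 and 1127 in SRSF3 (61.6, 114 and 4384 CPM) and 19, 27 and 586 in SRSF7 (76.5, 98.2 and 1595 CPM). Here the SRSF7 intervals for chromatin (46.0 to 119 CPM) and nucleoplasm (64.7 to 143 CPM) overlap. The glutamine tRNA mt-Tq was the least listed of the 4 tRNAs, with 38, 1 and 447 cDNAs in SRSF3 and 201 in SRSF7 cytoplasm. It was not listed in SRSF7 chromatin or SRSF7 nucleoplasm.

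The mRNA mt-Nd6 was not listed in either chromatin file. SRSF3 left 106 cDNAs on it in nucleoplasm (336 CPM) and 268 in cytoplasm (1042 CPM). SRSF7 left 9 in nucleoplasm (32.7 CPM) and 474 in cytoplasm (1291 CPM). In cytoplasm the ratio of SRSF3 over SRSF7 was 0.808 (0.693 to 0.94), and with positions counted in place of cDNAs it turned to 1.73 (1.27 to 2.34). In nucleoplasm the SRSF7 count was below the minimum of 10 set for a ratio.

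**Figure D1:**
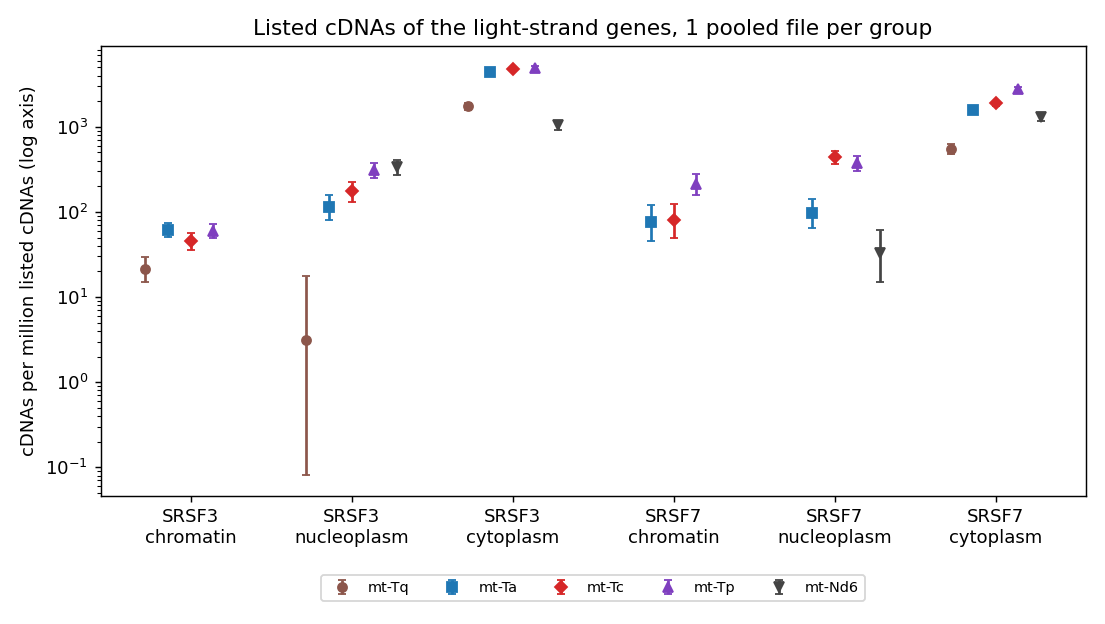
Listed cDNAs of the 5 listed light-strand genes as CPM, cDNAs per 1000000 listed cDNAs of the file (log axis), for the 6 pooled files, with exact 95% intervals for counting error; a gene without a point was not listed in that file. In SRSF3 the tRNAs stand between 1739 and 4850 CPM in cytoplasm and at 61.6 or below in chromatin.

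Levels were also compared between genes, per nucleotide of gene length. In SRSF3 cytoplasm mt-Tp and mt-Tc stood at 72.4 and 72.3 CPM per nt and did not differ beyond counting error. Next came mt-Ta at 63.5 (59.9 to 67.3), mt-Tq at 24.5 (22.3 to 26.9) and mt-Nd6 at 2.01 (1.78 to 2.26). In SRSF7 cytoplasm the order was the same, but the step from mt-Tp at 41.8 (39.3 to 44.4) to mt-Tc at 28.5 (26.4 to 30.7) was beyond counting error. There mt-Ta stood at 23.1, mt-Tq at 7.71 and mt-Nd6 at 2.49. The least listed of the 4 tRNAs therefore still had more cDNAs per nt than the mRNA in both cytoplasmic files. In SRSF3 nucleoplasm this was reversed, with mt-Tq at 0.0446 (0.00113 to 0.249, from 1 cDNA) below mt-Nd6 at 0.647 (0.530 to 0.783). There mt-Tp at 4.59, mt-Tc at 2.64 and mt-Ta at 1.65 lay above mt-Nd6. In SRSF3 chromatin mt-Tp and mt-Ta were level at 0.895 and 0.893, whereas in SRSF7 chromatin mt-Tp led at 3.18 (2.38 to 4.16) with mt-Tc at 1.22 and mt-Ta at 1.11. In SRSF7 nucleoplasm mt-Tc at 6.67 and mt-Tp at 5.54 had overlapping intervals, and both lay above mt-Ta at 1.42.

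The first comparison asks how the share of cDNAs on these genes differs between cytoplasm and chromatin. In SRSF3 the 9 genes held 0.0188% of chromatin cDNAs and 1.68% of cytoplasmic cDNAs, an 89.1-fold ratio (79.7 to 99.96). In SRSF7 they held 0.037% and 0.811%, a 21.9-fold ratio (17.8 to 27.3). A member was compared where the pair of files summed to 50 or more cDNAs on it, with no fewer than 10 in either, and was called beyond 2-fold when its whole interval lay there. In SRSF3 all 4 tRNAs compared were called higher in cytoplasm, with ratios from 71.1 for mt-Ta to 105 for mt-Tc. Among all 70 nt windows of the genome, 48.1% were called higher and 5.58% lower in that comparison, and the median ratio was 2.70. In SRSF7 all 3 tRNAs compared were called higher, with 13.1 for mt-Tp, 20.9 for mt-Ta and 23.3 for mt-Tc, where 12.6% of windows were called higher, 28.3% lower, and the median was 0.836. The heavy strand of the mitochondrial genome showed 84.6-fold (81.6 to 87.8) in SRSF3 and 28.4-fold (26.3 to 30.6) in SRSF7. For the sum of the 9 genes the intervals overlapped with these in both proteins, but mt-Tp alone in SRSF7, at 13.1 (9.95 to 17.6), lay below the heavy strand. With listed positions counted in place of cDNAs, the ratios of the 9 genes were 36.1 in SRSF3 and 5.12 in SRSF7.

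Nucleoplasm was where the 2 strands parted, by more in SRSF3 than in SRSF7. From chromatin to nucleoplasm the 9 genes went from 0.0188% to 0.0935% of SRSF3 cDNAs, 4.97-fold (4.23 to 5.83), while the heavy-strand ratio was 54.7 (52.8 to 56.8). Cytoplasm over nucleoplasm was 18.0 for the 9 genes (15.95 to 20.3) and 1.55 for the heavy strand (1.52 to 1.57). In SRSF7 the same ratios for the 9 genes were 2.54 (1.998 to 3.26, just short of the rule for a call) and 8.61 (7.58 to 9.82). The SRSF7 heavy strand gave 4.73 (4.36 to 5.13) and 5.997 (5.80 to 6.21), and neither pair of intervals overlaps. The larger step of the SRSF3 light-strand genes thus lay between nucleoplasm and cytoplasm, and that of the SRSF3 heavy strand between chromatin and nucleoplasm. With positions counted the order of the 2 light-strand steps turned, to 10.4 from chromatin to nucleoplasm and 3.47 from nucleoplasm to cytoplasm.

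Member by member, nucleoplasm over chromatin gave 5.13 for mt-Tp, 3.85 for mt-Tc and 1.85 for mt-Ta in SRSF3. Of these 3, mt-Tp and mt-Tc were called higher, where 36.8% of windows of the genome were called higher and 2.28% lower. The call of mt-Tc was lost with positions of at least 3 cDNAs (2.66, 1.76 to 3.98) and after thinning the files to equal size (2.93, 1.56 to 5.82). In SRSF7, mt-Tc at 5.47 was called and mt-Tp at 1.74 was not, against 13.4% of windows higher and 24.6% lower. Cytoplasm over nucleoplasm was called higher for all 4 members compared in SRSF3, from 3.10 for mt-Nd6 to 38.4 for mt-Ta, against 14.8% of windows higher and 9.2% lower. The mt-Nd6 call was lost with positions counted (2.43, 1.71 to 3.48). Cytoplasm over nucleoplasm was called for all 3 compared in SRSF7, from 4.27 for mt-Tc to 16.3 for mt-Ta, against 19.8% of windows higher and 20.4% lower. These orders leave out members with too few nucleoplasmic cDNAs for a ratio, mt-Tq in SRSF3 (1 cDNA), mt-Tq in SRSF7 (none listed) and mt-Nd6 in SRSF7 (9).

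**Figure D2:**
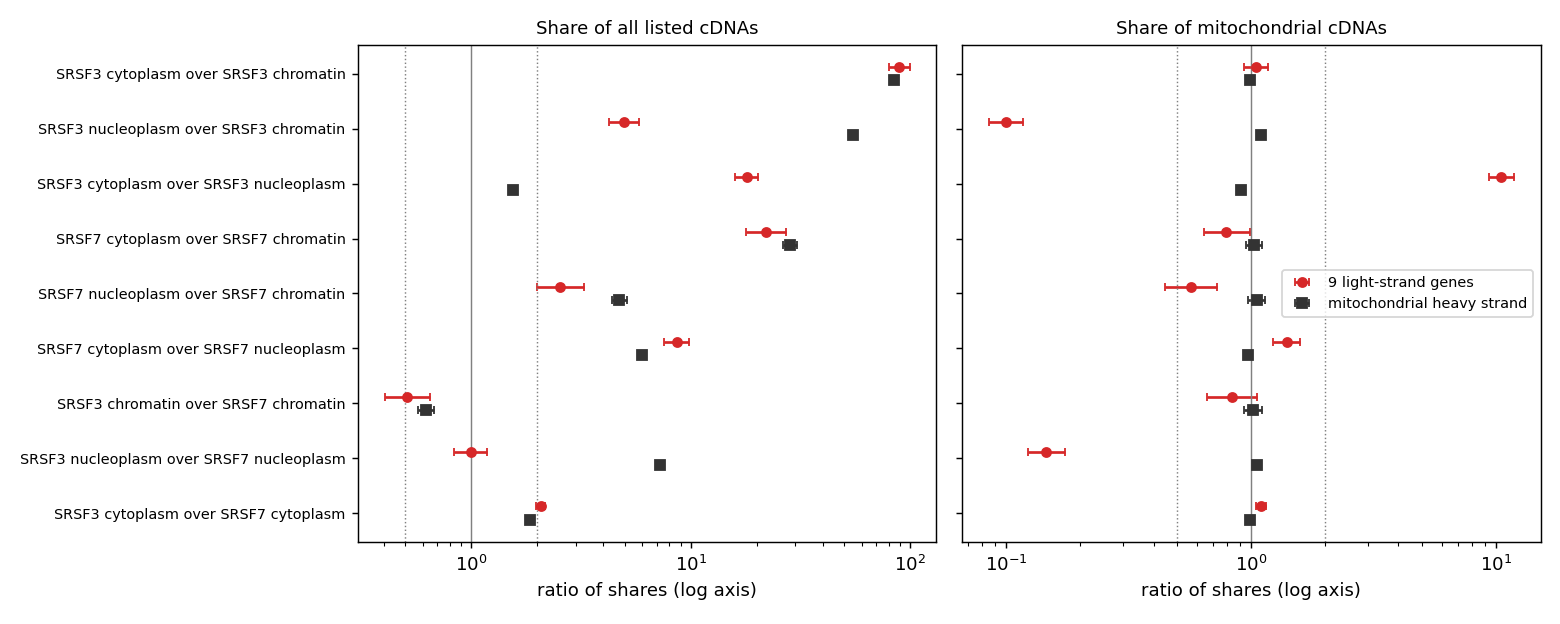
Ratios of shares for the 9 pairs of files (log axes), of all listed cDNAs on the left and of mitochondrial cDNAs on the right, for the 9 light-strand genes together and for the mitochondrial heavy strand; bars are exact 95% intervals for counting error and dotted lines mark 2-fold. On the right, the 3 pairs within each protein show the SRSF3 nucleoplasm apart, at 0.0996 against chromatin and 10.5 for cytoplasm against it.

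Set against mitochondrial cDNAs alone, the light-strand genes held a similar share in 4 of the 6 files. It was 9.59% in SRSF3 chromatin (8.63 to 10.6), 10.0% in SRSF3 cytoplasm (9.76 to 10.3), 11.5% in SRSF7 chromatin (9.38 to 13.9) and 9.13% in SRSF7 cytoplasm (8.82 to 9.45). SRSF7 nucleoplasm was lower at 6.53% (5.78 to 7.35). SRSF3 nucleoplasm was far lower, at 0.955% (0.849 to 1.07), with 295 of 30894 mitochondrial cDNAs. Its 3 members compared with chromatin on this scale, mt-Ta, mt-Tc and mt-Tp, were all called lower, by 26.9-fold, 12.9-fold and 9.72-fold. Of the 21 mitochondrial windows compared in that pair, which include those over the 9 genes, 47.6% were called lower and 9.52% higher. Cytoplasm over SRSF3 nucleoplasm was called higher for 3 of the 4 members compared, mt-Ta at 22.5, mt-Tc at 16.0 and mt-Tp at 9.25, and not for mt-Nd6 at 1.82. Of the 74 mitochondrial windows compared there, 28.4% were called higher and 12.2% lower. In SRSF7, cytoplasm over nucleoplasm was called for 0 of 3 members (20.8% of 24 mitochondrial windows higher, 16.7% lower), and nucleoplasm over chromatin for 0 of 2 (0% and 20% of 10 windows). Between cytoplasm and chromatin no member was called on this scale in either protein. Of mitochondrial windows, 4% of 25 were called higher and 16% lower in SRSF3, and 0% and 31.2% of 16 in SRSF7.

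Against SRSF3 cytoplasm, SRSF3 nucleoplasm was lower on both strands, with 935 against 16784 CPM for the 9 genes and 96935 against 149878 CPM for the heavy strand. Against SRSF7 nucleoplasm it differed on the heavy strand. In nucleoplasm the 9 genes held 935 CPM in SRSF3 and 942 in SRSF7, a ratio of 0.993 (0.837 to 1.18). Keeping only positions of at least 3 cDNAs gave 0.599, and counting positions gave 2.49. The heavy strand held 96935 CPM in SRSF3 and 13450 in SRSF7, a ratio of 7.21 (6.97 to 7.46). As a share of mitochondrial cDNAs all 3 members compared were called lower in SRSF3 nucleoplasm than in SRSF7 nucleoplasm, mt-Tc at 0.0583, mt-Tp at 0.122 and mt-Ta at 0.171. Of the 23 mitochondrial windows compared there, 39.1% were called lower and 21.7% higher. Leaving out the 10 highest heavy-strand windows, an alternative chosen after seeing the data, gave light-strand shares of 2.58% in SRSF3 nucleoplasm and 31.5% in SRSF7 nucleoplasm. The other 4 files then ranged from 17.3% to 24.8%. SRSF3 nucleoplasm was the lowest in both cases, and SRSF7 nucleoplasm became the highest.

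The make-up of the light-strand cDNAs differed between files as well. In SRSF3 nucleoplasm mt-Nd6 held 35.9% of them (30.5 to 41.7), against 6.21% in SRSF3 cytoplasm (5.51 to 6.97). In SRSF7 the order was the other way: cytoplasm had the larger part, 15.9% (14.6 to 17.3), and nucleoplasm 3.47% (1.60 to 6.49). In SRSF7 nucleoplasm mt-Tc led with 46.7% (40.5 to 53.0), whereas it held between 18.6% and 28.4% in the other 5 files. The proline tRNA led in SRSF7 chromatin with 57.6% (46.9 to 67.9) and held 28.9% to 39.4% elsewhere. SRSF7 chromatin rests on 92 cDNAs in all.

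**Figure D3:**
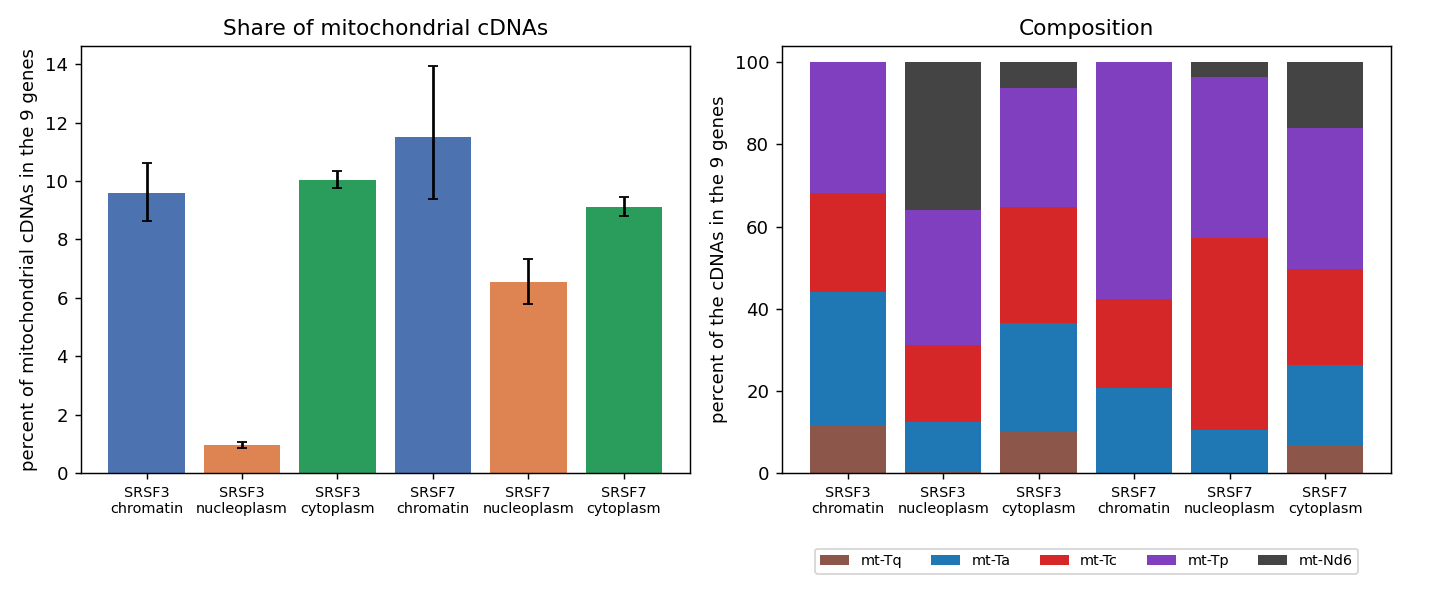
Left, percent of mitochondrial cDNAs that lay in the 9 light-strand genes, with exact 95% intervals for counting error; right, how those cDNAs divide among the 5 listed genes, for the 6 pooled files. SRSF3 nucleoplasm has the lowest share, 0.955%, and the largest part from mt-Nd6, 35.9%.

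SRSF3 and SRSF7 were then compared within each fraction. In chromatin the 9 genes held 0.509 times the SRSF7 share in SRSF3 (0.403 to 0.648), and 1 of 3 members compared, mt-Tp, was called lower in SRSF3 at 0.281 (0.20 to 0.399), where 35% of windows of the genome were called lower and 0.661% higher. On the mitochondrial scale 0 of these 3 were called, and 0% of the 14 mitochondrial windows compared. The mt-Tp call was lost with positions of at least 3 cDNAs (0.411, 0.289 to 0.591) and without its highest position (0.384, 0.242 to 0.627). In nucleoplasm, on the scale of all listed cDNAs, 0 of 3 members were called in either direction. The lowest ratio was that of mt-Tc at 0.396 (0.283 to 0.549), where 15% of windows were called lower and 17.2% higher. With positions of at least 3 cDNAs mt-Tc was called lower in SRSF3 (0.261, 0.178 to 0.377). In cytoplasm the share was 2.07-fold higher in SRSF3 (1.97 to 2.17). The 3 tRNAs mt-Tq at 3.18 (2.68 to 3.77), mt-Ta at 2.75 (2.48 to 3.04) and mt-Tc at 2.54 (2.31 to 2.79) were called higher, mt-Tp at 1.73 and mt-Nd6 at 0.808 were not. Of all windows, 18.6% were called higher and 5.11% lower. The calls of mt-Ta and mt-Tc were lost with positions of at least 3 cDNAs, at 2.08 (1.88 to 2.30) and 1.92 (1.75 to 2.12). All 3 calls were lost with positions counted, where the lower bounds were 1.34 for mt-Tq, 1.62 for mt-Ta and 1.46 for mt-Tc. As a share of mitochondrial cDNAs no member was called between the cytoplasmic files, where 15.5% of 71 mitochondrial windows were called higher and 9.86% lower. On that scale mt-Tq stood at 1.69 and mt-Nd6 at 0.43 (0.369 to 0.5002), the highest and the lowest.

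Along the tRNAs the listed cDNAs were concentrated in the middle. Positions are counted from 1 at the 5′ end of each gene. Each tRNA was divided into 3 equal parts, and the middle part, where the anticodon arm of a tRNA lies, held between 81.1% and 93.6% of the summed tRNA cDNAs in the 6 files. In mt-Ta alone it held from 50% in SRSF3 nucleoplasm to 84.2% in SRSF7 chromatin, and 57.5% in SRSF3 cytoplasm. The part at the 3′ end held 0 cDNAs in 4 files, 4 of 4047 in SRSF3 cytoplasm and 19 of 2505 in SRSF7 cytoplasm. No position was listed in the first 17 nt or the last 23 nt of mt-Tq, nor in the first 11 and last 22 of mt-Ta, the first 13 and last 22 of mt-Tc, or the first 17 and last 19 of mt-Tp. The authors' listing used a neighbourhood of 15 nt. The gene mt-Tq was listed from nt 18 to nt 48, around its highest position at nt 33. Likewise mt-Tc was listed from nt 14 to nt 44 around nt 30, and mt-Tp from nt 18 to nt 48 around nt 34. In mt-Ta, listed from nt 12 to nt 47, the highest position was nt 16. How far the listing rule sets these empty ends or the share of the middle part was not tested, and an unlisted end is not shown to be unbound.

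In 3 of the 4 tRNAs the highest position over all files lay within a few nt of the same place: nt 30 in mt-Tc, nt 33 in mt-Tq and nt 34 in mt-Tp. The peak of mt-Tp at nt 34 held 33.0%, 38.1% and 38.3% of its cDNAs in the SRSF3 files, in the order chromatin, nucleoplasm, cytoplasm, and 50.9%, 32.4% and 26.9% in the SRSF7 files. It was the highest position of that gene in all 6 files. In mt-Tc, nt 30 was highest in 5 files, with 15%, 29.1% and 28.9% in SRSF3 and 41.3% and 25.1% in SRSF7 nucleoplasm and cytoplasm. In SRSF7 chromatin the highest was nt 15 with 5 of 20 cDNAs. In mt-Tq, nt 33 held 34.2% in SRSF3 chromatin, 37.4% in SRSF3 cytoplasm and 28.4% in SRSF7 cytoplasm. A stretch from nt 28 to nt 36, chosen after its values were seen, held between 60.4% and 85.2% of the summed tRNA cDNAs per file. In mt-Ta alone it held from 40.4% in SRSF7 cytoplasm to 78.9% in SRSF7 chromatin, which has 19 cDNAs on that gene.

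The alanine tRNA had its highest position over all files nearer its 5′ end, at nt 16 with 387 cDNAs, and its next at nt 31 with 203. Its stretch from nt 12 to nt 20, also chosen after its values were seen, held 42.1% of its cDNAs in SRSF3 cytoplasm (39.2 to 45.1) and 30.03% in SRSF7 cytoplasm (26.3 to 33.9). The same stretch of mt-Tp held 0.802% and 2.14%, that of mt-Tq 5.59% and 4.98%, and that of mt-Tc 17.3% and 15.5%. In nucleoplasm it held 50% of mt-Ta and 10.9% of mt-Tc cDNAs in SRSF3, and 25.9% and 3.31% in SRSF7. In chromatin mt-Ta did not stand apart from mt-Tc. The SRSF3 shares there were 28.4% (20.2 to 37.9) and 25% (16.0 to 35.9), and SRSF7 had 3 of 19 and 9 of 20 cDNAs. At nt 16 of mt-Ta the cytoplasmic files held 216 cDNAs (SRSF3) and 147 (SRSF7). At nt 15 SRSF3 held 143, and SRSF7 had no listed cDNA there in any fraction. In cytoplasm the first listed position of mt-Ta was nt 12 for SRSF3 and nt 16 for SRSF7. The 2 cytoplasmic shares of the mt-Ta stretch from nt 12 to nt 20 thus do not cover the same positions. Whether binding or the listing rule sets these edges was not tested. The arrangement of the other 3 tRNAs was closely alike between the cytoplasmic files: across listed positions, which are not independent, Pearson's r was 0.97 for mt-Tq (n = 30 positions), mt-Tc (n = 31) and mt-Tp (n = 31), and 0.79 for mt-Ta (n = 36).

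**Figure D4:**
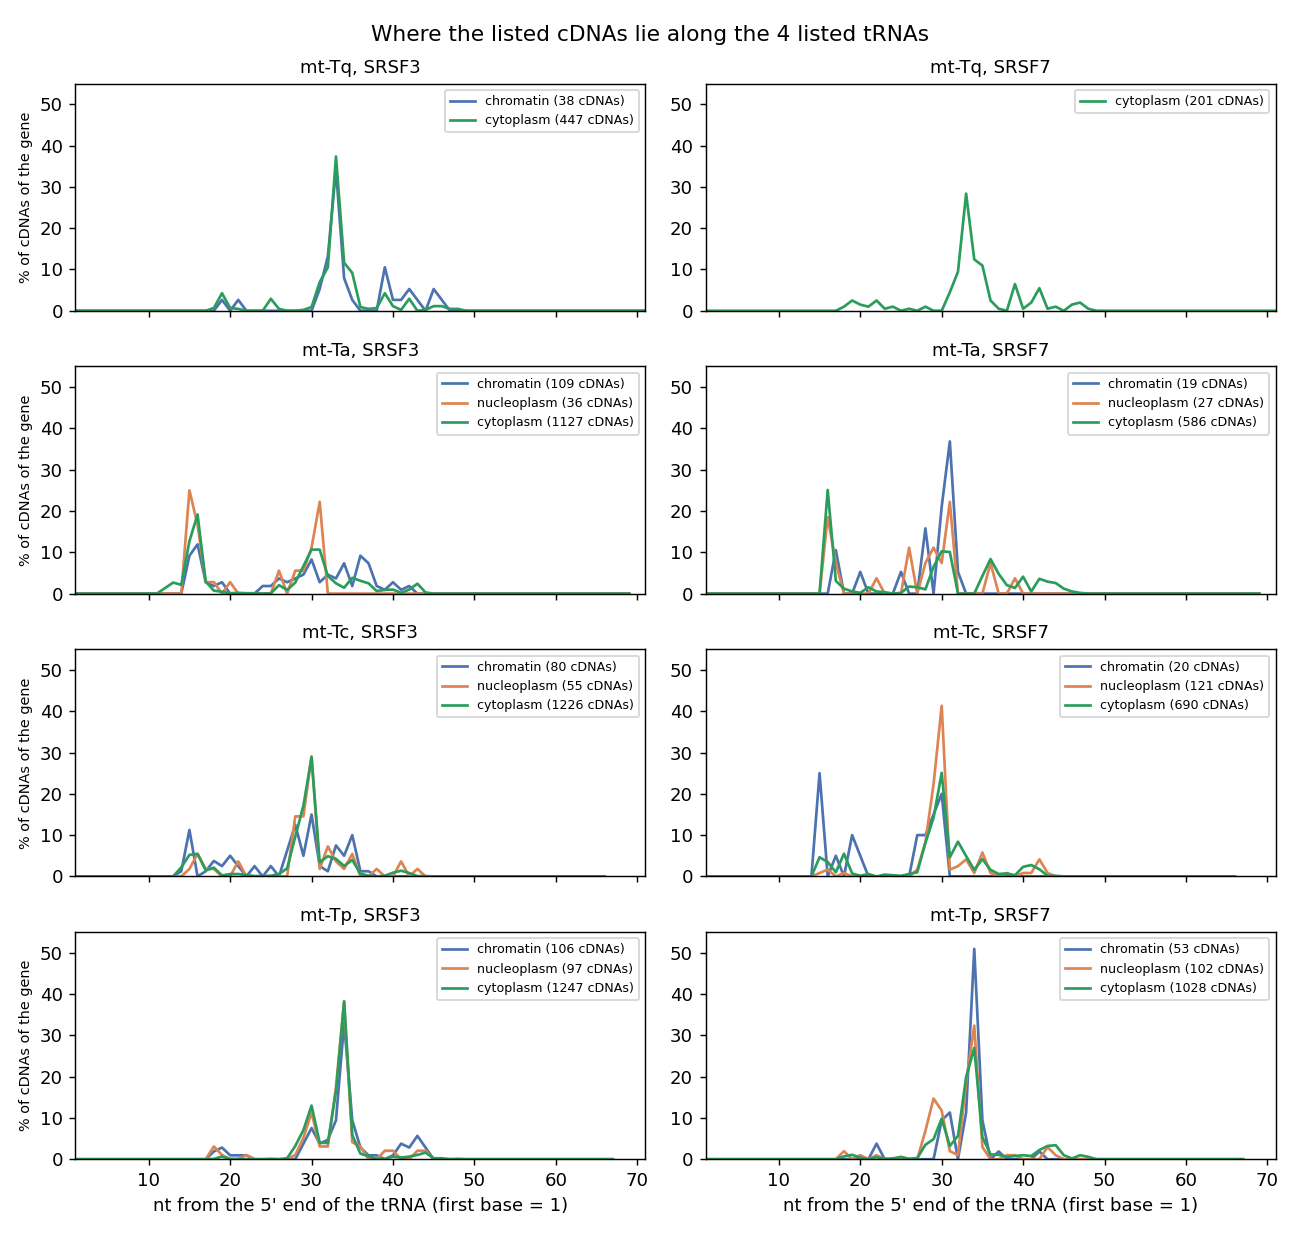
Percent of each tRNA's listed cDNAs at each nucleotide from its 5′ end, for SRSF3 (left) and SRSF7 (right), with 1 line per fraction and files with under 10 cDNAs on the gene left out. The peak of mt-Tp at nt 34 recurs in all 6 files. In mt-Ta a separate peak lies at nt 15 to 16 in the SRSF3 files. In SRSF7 it lies at nt 16, the first listed position, in cytoplasm and in nucleoplasm (5 of 27 cDNAs), and is not listed in chromatin.

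In mt-Nd6 the listed positions fell into separate stretches, and the lists of the 2 proteins filled them differently. Peak calling may differ between the proteins, and its effect on these stretches was not tested. Positions joined at gaps of up to 15 nt gave 5 stretches, at nt 22 to 50, 115 to 193, 289 to 290, 388 to 418 and 460 to 493. The stretch at nt 115 to 193 held the most cDNAs in the 4 files that list the gene. It had 73 of 106 cDNAs in SRSF3 nucleoplasm, 151 of 268 in SRSF3 cytoplasm, 9 of 9 in SRSF7 nucleoplasm and 246 of 474 in SRSF7 cytoplasm. It was also the longest, spanning 79 nt where the others span 2 to 34 nt, and cDNAs per nt of stretch were not compared. The stretch nearest the 5′ end, nt 22 to 50, held 76 cDNAs over 21 positions in SRSF3 cytoplasm and 25 over 14 in SRSF3 nucleoplasm. SRSF7 had none listed there. The pair nearest the 3′ end, nt 388 to 418 and 460 to 493, held 121 and 100 cDNAs in SRSF7 cytoplasm against 24 and 17 in SRSF3 cytoplasm.

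With the gene divided into 3 equal parts, 59.0% of SRSF3 cytoplasmic cDNAs on mt-Nd6 lay in the first part (52.8 to 64.9) and 15.3% in the last (11.2 to 20.2). In SRSF7 cytoplasm 31.2% lay in the first (27.1 to 35.6) and 46.6% in the last (42.1 to 51.2). SRSF3 nucleoplasm resembled SRSF3 cytoplasm, with 72.6% and 7.55%. No position dominated: the highest, nt 175, held 13 of 268 cDNAs in SRSF3 cytoplasm and 18 of 474 in SRSF7 cytoplasm. Of the listed mt-Nd6 positions in SRSF3 nucleoplasm, 30 of 59 had 1 cDNA.

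**Figure D5:**
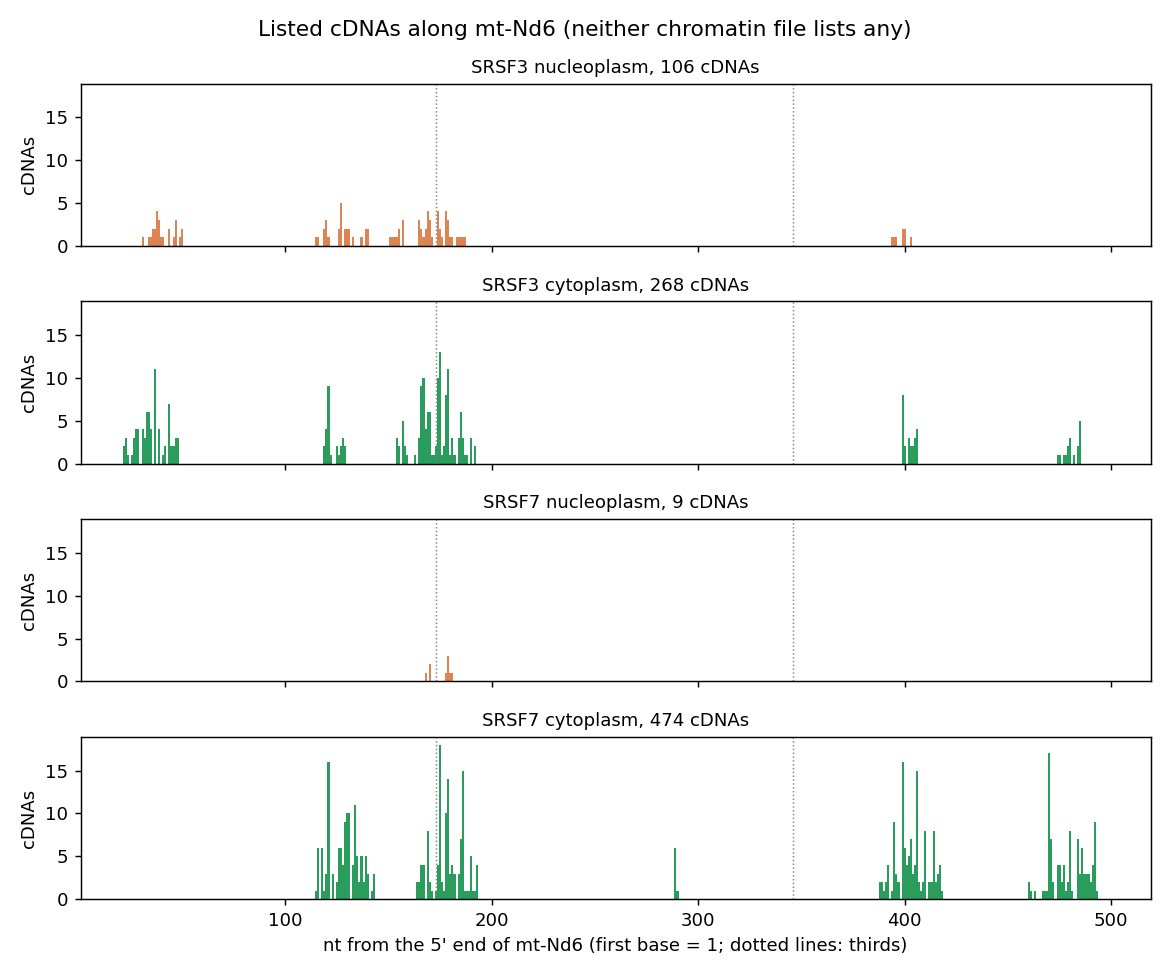
Listed cDNAs at each nucleotide of mt-Nd6 from its 5′ end, for the 4 files that list the gene; dotted lines divide it into 3 equal parts. SRSF3 has 76 cytoplasmic cDNAs at nt 22 to 50 where SRSF7 has none listed, and SRSF7 has 221 in the last part against 41 in SRSF3.

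Many listed nucleotides were shared between fractions. Of the 78 member positions of SRSF3 chromatin, 75 were also listed in SRSF3 cytoplasm, which is 96.2% of the chromatin list and 39.5% of the cytoplasmic list. In SRSF7, 22 of the 23 chromatin positions were in the cytoplasmic list, 95.7% of the one and 10% of the other. SRSF7 nucleoplasm shared 48 of its 49 positions with cytoplasm and 15 with chromatin. SRSF3 nucleoplasm shared 80 of its 102 with cytoplasm and 35 with chromatin. Between the proteins, 144 positions were common to both cytoplasmic lists, 75.8% of the SRSF3 list and 65.5% of the SRSF7 list. By gene this was 28 of 30 SRSF3 positions in mt-Tc, 25 of 26 in mt-Tp, 20 of 25 in mt-Tq, 25 of 32 in mt-Ta and 46 of 77 in mt-Nd6. SRSF3 cytoplasm alone held 30 of the 31 mt-Tc positions listed in any file, 26 of 31 in mt-Tp, 25 of 30 in mt-Tq and 32 of 36 in mt-Ta. Most positions in the narrow listed range of these tRNAs would thus be shared with it. The shared part over all listed positions of the genome was not computed.

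Few light-strand cDNAs fell outside the 9 genes. The genes held between 95.2% and 100% of the light-strand mitochondrial cDNAs per file. Of 140 other loci (positions joined at gaps of up to 10000 nt, with 50 or more cDNAs in every file), those nearest to the 9 genes in share over the 6 files, each centred on its own mean, were both minus-strand loci, chromosome 6 from 47721891 to 47772756 and chromosome 13 from 22009021 to 22035660. The mitochondrial heavy strand came next. Their root mean square differences from the 9 genes were 1.22, 1.26 and 1.30 on the log2 scale, and Pearson's r over the 6 files was 0.88, 0.89 and 0.86.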

How the data were processed

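Positions from fractionation iCLIP of 21 samples in 6 groups were deposited as 1 pooled list per group. Each list holds 1 signed score per 1 nt position, the cDNA count with the strand as its sign, per the deposited values. Per the file headers, the authors drew 100 permutations, used a neighbourhood of 15 nt and kept positions under a false discovery rate of 0.05. The 3 SRSF7 headers also name regions as one, so peak calling may differ between the proteins. The build was mm9, per the submitters' processing notes. For the aligner, duplicate removal and caller, the sources used here give none. With replicates pooled, no test was possible.

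Positions were made 1-based and assigned to the 9 genes by coordinate. Shares are of listed cDNAs. Background windows were 70 nt, on either strand, under the same minimum counts, and include those over the 9 genes. The interval rule was checked on simulated data that hold counting error only, so the check does not cover spread between replicates. All 9 members, their highest positions, the 3 loci most alike and the 3 highest unassigned positions were named by rule. Members and lists were chosen with earlier results of these data known. Alternatives were positions with at least 3 cDNAs, thinning to 248498 cDNAs, counting positions, 5 nt longer genes, leaving out each gene's highest position, and mitochondrial denominators. Intervals came from scipy 1.17.1 and figures from matplotlib 3.10.9, under Python 3.11.15 with pandas 2.3.3 and numpy 2.4.6.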

Additional observations from a re-analysis of the deposited data

Results flagged for a closer look

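As a share of mitochondrial cDNAs, mt-Tc was 16.0-fold higher in cytoplasm than in nucleoplasm for SRSF3, and for SRSF7 its ratio was 0.693, on the other side of 1. Each value rests on 1 pooled file per fraction, so the difference between the proteins was not tested.

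Light-strand cDNAs were also listed outside the 9 genes, in data the comparisons do not use. The 2 nt just upstream of the 5′ end of mt-Tq, at 3843 and 3844, held 7 cDNAs in SRSF3 chromatin, 3 in SRSF3 nucleoplasm and 45 in SRSF3 cytoplasm. In SRSF7 they held 0 in chromatin, 6 in nucleoplasm and 29 in cytoplasm. Inside mt-Tq, SRSF3 nucleoplasm had 1 cDNA and SRSF7 nucleoplasm 0. No other listed light-strand position lay within 5 nt outside a member. Upstream of mt-Tp, in the control region at 16152 to 16175, there were 12 cDNAs in SRSF3 nucleoplasm and 53 in SRSF3 cytoplasm. The highest position, 16153, held 10 over all files. SRSF7 had 3 cDNAs in the stretch, in cytoplasm.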

How the results depend on the processing

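The 9 genes' shares are given below for SRSF3 chromatin, nucleoplasm and cytoplasm and then SRSF7 in that order. Without each member's highest position they were 0.0147%, 0.0742%, 1.21%, 0.0246%, 0.0622% and 0.629% of all cDNAs. As shares of mitochondrial cDNAs they were 9.59%, 0.955%, 10.0%, 11.5%, 6.53% and 9.13%, and without the 10 highest heavy-strand windows 19.4%, 2.58%, 17.3%, 24.8%, 31.5% and 17.5%. With at least 3 cDNAs per position the shares of all cDNAs were 0.0334% in SRSF3 chromatin, 2.09% in SRSF3 cytoplasm, 0.159% in SRSF7 nucleoplasm and 1.32% in SRSF7 cytoplasm. With positions counted these 4 were 0.00896%, 0.324%, 0.0375% and 0.154%. Thinning gave 0.0161% in SRSF3 chromatin. The light-strand share of mitochondrial cDNAs was 12.2%, 5.64%, 7.38%, 8.49%, 11.6% and 11.4% with positions counted. It was 7.86%, 0.808%, 7.64%, 7.94%, 4.57% and 7.32% without the highest positions, 0.676% in SRSF3 nucleoplasm with at least 3 cDNAs and 8.61% in SRSF3 chromatin after thinning.

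The mitochondrial denominators moved most ratios and turned some below 1. On mitochondrial cDNAs, cytoplasm over chromatin was 1.05 for SRSF3 and 0.793 for SRSF7, SRSF3 nucleoplasm over chromatin 0.0996, SRSF7 cytoplasm over nucleoplasm 1.397 and SRSF3 over SRSF7 in nucleoplasm 0.146. Without the 10 highest windows these were 0.891, 0.706, 0.133, 0.556 and 0.0819. SRSF7 nucleoplasm over chromatin, 2.54 on all cDNAs and not called there, was 0.567 on mitochondrial cDNAs and 1.27 without the 10 highest windows, and its mt-Tp 0.388 on mitochondrial cDNAs. For single members on mitochondrial cDNAs, SRSF3 cytoplasm over chromatin was 0.951 for mt-Tq, 0.836 for mt-Ta, 1.24 for mt-Tc and 0.951 for mt-Tp. SRSF3 nucleoplasm over chromatin was 0.0371, 0.0773 and 0.103 for mt-Ta, mt-Tc and mt-Tp, and SRSF7 cytoplasm over chromatin 0.755, 0.845 and 0.475. SRSF7 cytoplasm over nucleoplasm was 0.693 for mt-Tc, 2.64 for mt-Ta and 1.22 for mt-Tp, and SRSF3 over SRSF7 in nucleoplasm 0.171 for mt-Ta. SRSF7 nucleoplasm over chromatin passed the 2-fold rule with at least 3 cDNAs (3.70), thinning (2.61) and 5 nt longer genes (2.60), and SRSF3 over SRSF7 in chromatin did with positions counted (0.297). Without the highest positions none of the 9 ratios of the 9 genes together changed its call, although SRSF3 over SRSF7, uncalled in either case, went from 0.993 to 1.19 in nucleoplasm and from 2.07 to 1.92 in cytoplasm.

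No paired analysis was possible because each file pools its replicates, and for the same reason the fits without each replicate were not run. SRSF7 chromatin, with 92 member cDNAs, and mt-Nd6 in SRSF7 nucleoplasm, with 9, rest on the fewest cDNAs.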
